A study of Mus musculus with 8 samples.

Results

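The 9 genes described here mark successive steps of the neural lineage: Sox1, Pax6, Neurog1, Neurog2, Neurod1, Nes, Tubb3, Map2 and Th. They were chosen by name, with earlier results of these data known, and they are 9 of 21951 protein-coding genes in the GENCODE M21 annotation. All peaks of 8 chromatin immunoprecipitation sequencing (ChIP-seq) libraries were collected from 20 kb upstream of each gene to 5 kb past its end. ChIP-seq recovers the DNA that is cross-linked to a protein, and a peak is a place where the recovered fragments pile up. The cells were E14Tg2a, a mouse embryonic stem cell line, at passages 37 to 40, and chromatin from 5 plates was pooled for each immunoprecipitation. Leukemia inhibitory factor (LIF) kept the pluripotent cells (ESCs) undifferentiated. Neuronal cells (NCs) were LIF-free monolayers of the same line given 1 µM retinoic acid (RA) over 48 h. FGFR1, RXR and Nur77 each had 1 library in ESCs, and in NCs RXR, Nur77 and the histone variant H3.3 had 1 library each and FGFR1 had 2, called replicates 1 and 2. H3.3 was not measured in ESCs, and no library of input DNA or of untreated LIF-free cells was analysed here. Peak lists hold no RNA level, so neither the cell state nor the activity of these genes could be checked from them.

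FGFR1 is a receptor tyrosine kinase for fibroblast growth factors that is also found in the nucleus. RXR is the retinoid X receptor, a partner of many nuclear receptors, and Nur77 is an orphan nuclear receptor that can pair with it. RA drives ES cells toward neurons, and the genes studied here follow that path. Sox1 and Pax6 are transcription factors of neural progenitors. Neurog1, Neurog2 and Neurod1 are basic helix-loop-helix factors that commit progenitors to neurons, and they bind E-box sequences. Nes is the intermediate filament protein nestin of progenitors, Tubb3 and Map2 are a tubulin and a microtubule-associated protein of neurons, and Th is tyrosine hydroxylase, the rate-limiting enzyme of catecholamine synthesis.

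The DNA under the peaks shows the kinds of places that were bound. Sequences are from the forward strand of GRCm38 (mm10), positions are counted from 1, and each run is a merged site, the stretch covered by overlapping peaks of any libraries. Where a site reached into an untranslated exon, only the part outside it is printed. Capitals in the next 6 runs mark the bases shared by all peaks of the site. The Sox1 site (chr8:12391695-12391870) lay upstream of the gene and held RXR peaks in both states. The Nes site (chr3:87971559-87971708) lay in coding sequence and held peaks of FGFR1 replicate 1, Nur77 and H3.3 in NCs. The Tubb3 site was the only one with peaks of both FGFR1 replicates, and the 48 bp before the first start are shown (chr8:123411376-123411423). The Neurog2 site (chr3:127625365-127625528) lay upstream of the gene, the Neurod1 site (chr2:79454253-79454383) in coding sequence, and the Th site (chr7:142935817-142936085) was the only site of its gene.
Sox1 upstream site: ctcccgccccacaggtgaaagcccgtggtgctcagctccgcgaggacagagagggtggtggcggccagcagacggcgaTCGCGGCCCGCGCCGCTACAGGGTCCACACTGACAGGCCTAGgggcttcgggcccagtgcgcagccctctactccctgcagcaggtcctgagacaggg
Nes coding site: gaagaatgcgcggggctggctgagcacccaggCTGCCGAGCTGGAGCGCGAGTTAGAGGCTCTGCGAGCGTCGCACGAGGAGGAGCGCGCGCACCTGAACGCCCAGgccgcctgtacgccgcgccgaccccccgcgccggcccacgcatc
Tubb3 start site: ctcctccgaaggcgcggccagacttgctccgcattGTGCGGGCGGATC
Neurog2 upstream site: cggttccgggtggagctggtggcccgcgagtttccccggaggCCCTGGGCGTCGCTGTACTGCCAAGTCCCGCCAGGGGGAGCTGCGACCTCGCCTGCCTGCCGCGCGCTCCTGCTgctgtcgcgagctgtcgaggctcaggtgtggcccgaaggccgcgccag
Neurod1 coding site: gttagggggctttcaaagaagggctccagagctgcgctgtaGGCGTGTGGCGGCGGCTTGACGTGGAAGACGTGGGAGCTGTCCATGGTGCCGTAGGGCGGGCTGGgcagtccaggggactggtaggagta
Th site: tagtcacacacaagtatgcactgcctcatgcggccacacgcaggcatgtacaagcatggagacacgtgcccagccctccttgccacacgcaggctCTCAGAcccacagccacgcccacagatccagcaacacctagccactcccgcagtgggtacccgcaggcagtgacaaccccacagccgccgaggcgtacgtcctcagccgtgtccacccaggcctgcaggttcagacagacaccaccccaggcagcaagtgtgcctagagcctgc

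The site at the Neurog1 start was made of 3 peaks in a chain and had no base common to all of them. Neurog1 lies on the reverse strand, and the part before its start is shown (chr13:56252164-56252316). Capitals mark the only AGGTCA, the core word of nuclear receptor sites, found in any site of the 9 genes.
Neurog1 start site: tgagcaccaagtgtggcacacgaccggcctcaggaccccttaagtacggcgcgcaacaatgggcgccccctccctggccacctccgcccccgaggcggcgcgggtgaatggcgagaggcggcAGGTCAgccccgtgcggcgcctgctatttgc

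A different kind of place was a run of alternating purines and pyrimidines, mostly CA or TG repeats. The site past the end of Pax6 (chr2:105698467-105698651) and the site at an internal start of Map2 (chr1:66252576-66252730) are shown with the longest such tract in capitals. The tracts were 65 and 70 bp long.
Pax6 tract site: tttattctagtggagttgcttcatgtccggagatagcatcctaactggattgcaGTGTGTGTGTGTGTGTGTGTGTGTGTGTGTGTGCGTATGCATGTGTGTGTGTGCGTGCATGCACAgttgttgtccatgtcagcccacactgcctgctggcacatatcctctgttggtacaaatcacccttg
Map2 tract site: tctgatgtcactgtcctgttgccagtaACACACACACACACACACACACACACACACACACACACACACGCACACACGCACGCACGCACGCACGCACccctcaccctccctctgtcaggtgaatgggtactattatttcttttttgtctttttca

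The lists held 10634 to 46137 peaks. Depth was inferred from the deposited values, since the lists do not state it. Background was lowest for H3.3, at 1.27 fragments per kb, and highest for RXR in ESCs, at 7.09. Median summits held 9 to 12 fragments, except in FGFR1 replicate 2, with 27. FGFR1 replicate 2 stood apart from replicate 1 in other ways as well. Its peaks had a median width of 311 bp against 89 bp, and 1.26% of them held an alternating tract of at least 20 bp against 21.1%. The strength of a peak is given as MACS2's −log10 p, the Poisson p-value of the summit against the local background of the same library. It grows with depth, so it was compared between genes within a library and not between libraries. With 1 library in 6 of the 7 groups, no test between ESCs and NCs was possible, and differences between libraries below carry no p-value.

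The windows of the 9 genes spanned 592365 bp and held 68 peaks, which merged into 37 sites. The FGFR1 library from ESCs had 3 of the peaks, the RXR library 10 and the Nur77 library 9. In NCs there were 19 in FGFR1 replicate 1 and 3 in replicate 2, a mean of 11 ± 11.3 (SD, n = 2), so the spread between the 2 replicates was as large as their mean. RXR had 11, Nur77 had 9 and H3.3 had 4 in NCs. All 9 windows held a peak of FGFR1 replicate 1, as did 73.8% of the windows of all protein-coding genes. Replicate 2 reached 2 windows, those of Nes and Tubb3, against 60.2%. The other libraries reached 3 windows for FGFR1 in ESCs (background 37.4%), 7 for RXR in ESCs (64.9%), 7 for Nur77 in ESCs (53.5%), 6 for RXR in NCs (44.7%), 7 for Nur77 in NCs (56.3%) and 3 for H3.3 (35%).

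**Figure D1:**
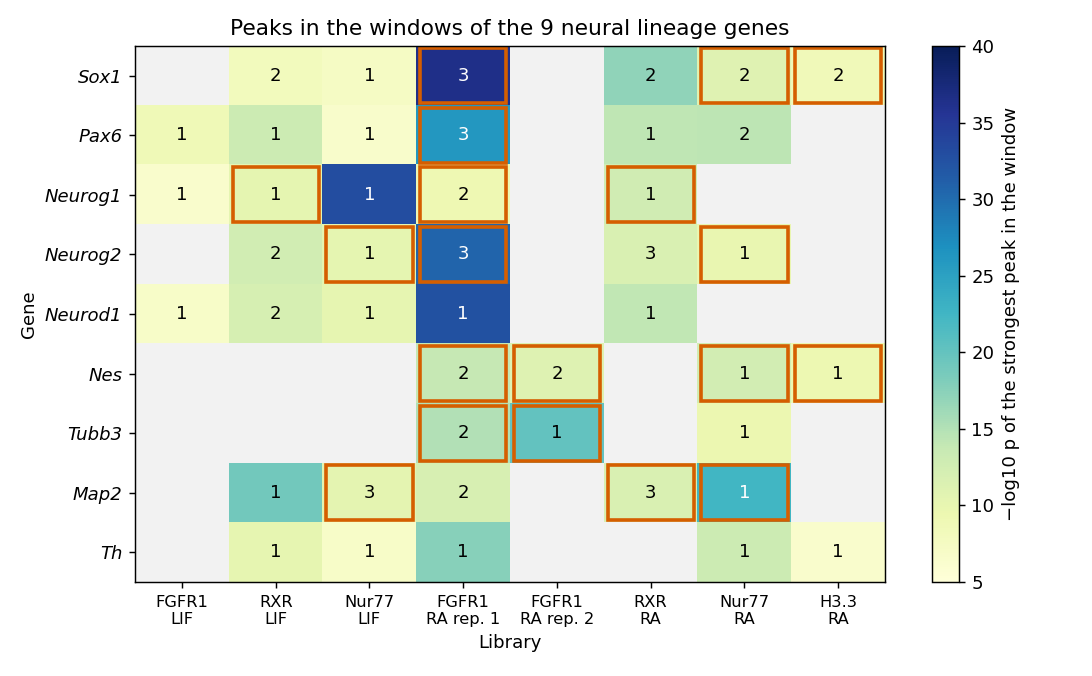
Peaks in the windows of the 9 genes (rows) in the 8 libraries (columns). The number in a square counts the peaks, the colour gives the −log10 p of the strongest of them, an orange frame marks a peak within 1000 bp of a start of the gene, and grey squares held no peak. FGFR1 replicate 1 in RA filled all 9 rows, replicate 2 only those of Nes and Tubb3.

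A promoter peak overlapped the 1000 bp on either side of any annotated start of a gene by at least 20 bp. In ESCs, FGFR1 had a promoter peak at 0 of the 9 genes, where 17% of all protein-coding genes had one. RXR had one at 1 gene, Neurog1, against a background of 42.5%. Nur77 had one at 2 genes, Neurog2 and Map2, against 25.5%. In NCs, FGFR1 replicate 1 had promoter peaks at 6 genes, Sox1, Pax6, Neurog1, Neurog2, Nes and Tubb3, against 50.7% of all genes. FGFR1 replicate 2 had them at 2, Nes and Tubb3, against 49.6%. The mean was 4 ± 2.83 genes (SD, n = 2), and the 2 genes called in both libraries stood against a background of 39.5%. RXR had promoter peaks in NCs at Neurog1 and Map2 (2 genes, background 23.3%), Nur77 at Sox1, Neurog2, Nes and Map2 (4 genes, 25.8%) and H3.3 at Sox1 and Nes (2 genes, 15.5%). With only 9 genes, 1 gene moves such a share by a large step, and none of these counts was tested against its background.

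**Figure D2:**
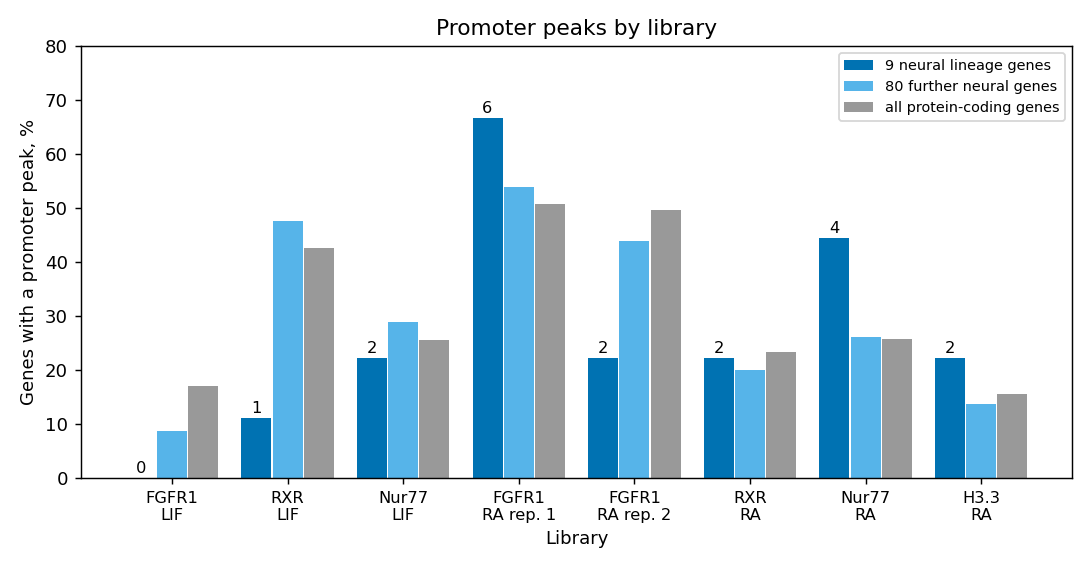
Share of genes with a promoter peak (vertical axis, percent) in each library for the 9 genes, for 80 further genes of the same lineage and for all protein-coding genes. The number above a bar counts the genes among the 9. FGFR1 had 0 of them in LIF, 6 in RA replicate 1 and 2 in RA replicate 2, while all genes stood at 50.7% and 49.6% in those last libraries.

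Over all libraries, 7 of the 9 genes had a promoter peak somewhere, against 65.5% of all protein-coding genes. The exceptions were Neurod1 and Th, which had none in any of the 8 libraries. Their peaks lay farther from the start, as described gene by gene next. Any annotated start could give a promoter call, so the lengths searched differed between genes. Pax6 had 24 starts with 19137 bp of promoter and Map2 had 23 with 18472 bp, against 2001 bp for Sox1 with 1 start. Raising the limit to a −log10 p of 10 left FGFR1 replicate 1 with promoter peaks at 3 genes, Sox1, Neurog2 and Nes, and H3.3 with 0. The shares of all protein-coding genes fell as well at that limit, to 40.6% and 7.17%.

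**Figure D3:**
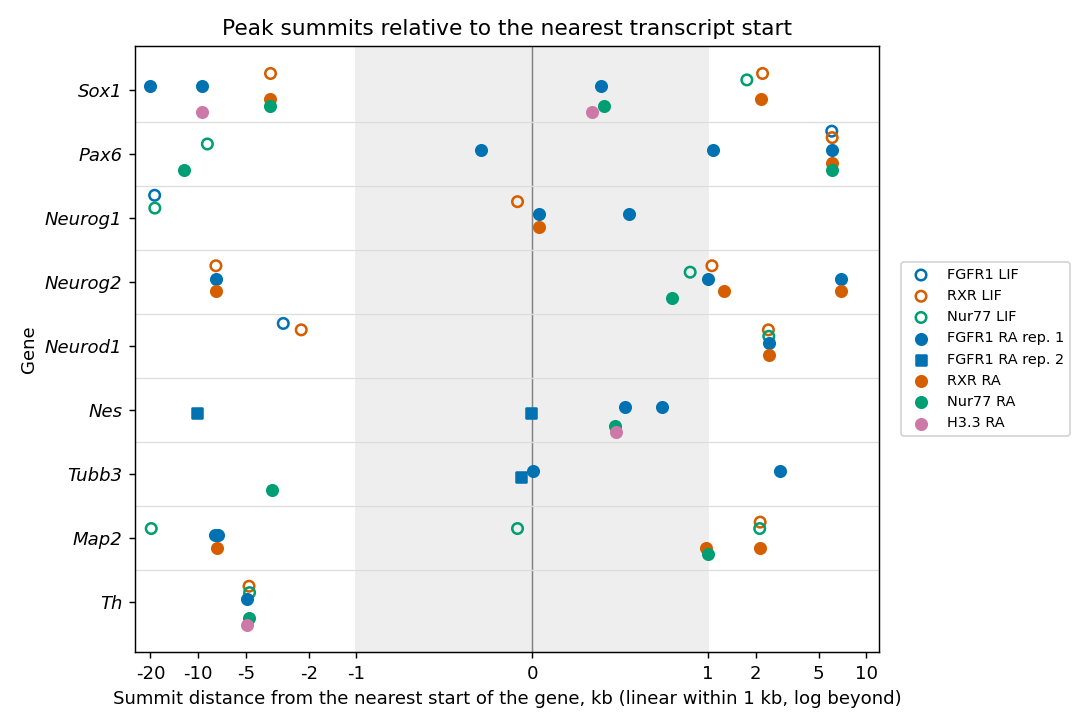
Distance of each of the 68 summits from the nearest annotated start of its gene (horizontal axis, kb, linear within 1 kb and logarithmic beyond). Open symbols are LIF libraries, filled symbols RA libraries, squares FGFR1 replicate 2, and the shaded band is the promoter. Neurod1 and Th had no summit in the band.

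Sox1, whose product is among the earliest markers of neural fate, had 12 peaks in 6 libraries. None of the 3 ESC libraries had a peak at its start. In NCs FGFR1 replicate 1 had a summit 393 bp downstream of the start with a −log10 p of 36.4, a fold of 14.3 over background and 36 fragments at the summit. It had the highest −log10 p of the 19 window peaks of that library and stood at percentile 98.3 of its list. Nur77 had a summit at 411 bp with a −log10 p of 11.0, and H3.3 at 339 bp with 7.41. These 3 peaks also reached within 1000 bp of a start of another gene, Gm25239, and the peak lists cannot tell which gene they belong to. FGFR1 replicate 2, RXR in NCs and all ESC libraries had no peak there.

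The other Sox1 sites were away from the start. At 3483 to 3520 bp upstream the RXR library from ESCs had a −log10 p of 8.01, RXR in NCs had 17.1 and Nur77 in NCs 9.4. The RXR libraries of both states shared a second site in the coding sequence, 2166 to 2214 bp downstream of the start, with values of 6.53 in ESCs and 8.39 in NCs. RXR therefore had peaks at the same 2 places around Sox1 in both states, and neither place was a promoter peak. Nur77 in ESCs had a separate coding peak at 1762 bp with 7.31, which also reached within 1000 bp of a start of Gm25239. FGFR1 replicate 1 and H3.3 also met 9460 and 9465 bp upstream, at the start of Sox1ot, a noncoding transcript that overlaps Sox1, with values of 17 and 8.46. A last peak of replicate 1, 19984 bp upstream, had 7.29.

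Pax6, a transcription factor of progenitors with 24 annotated starts, had 9 peaks in 6 libraries. None lay within 1000 bp of the start of a protein-coding Pax6 transcript. The only promoter peak was that of FGFR1 replicate 1 in NCs, with a −log10 p of 8.45 in an intron 288 bp upstream of an internal start. That start belongs to a retained-intron transcript, so the promoter call rested on a noncoding start. The site found in most libraries lay past the 3′ end of the gene, on the tract shown above. There the values were 8.81 for FGFR1 and 13.2 for RXR in ESCs, and 26.1 for FGFR1 replicate 1, 14.2 for RXR and 14.3 for Nur77 in NCs. The 5 summits fell within 40 bp of each other, and 5 libraries was the most found at any site of the 9 genes. Nur77 had single peaks upstream, at 8729 bp in ESCs with 6.54 and at 12312 bp in NCs with 10.1, both inside the antisense gene Pax6os1. FGFR1 replicate 1 had another intron peak with 9.11.

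Neurog1 was the only one of the 9 with an RXR promoter peak in ESCs. Its value was 10.2, with the summit 83 bp upstream of the start. RXR in NCs had a summit 37 bp downstream with 12.7. The peaks of the 2 RXR libraries stopped at chr13:56252183-56252316 and chr13:56252033-56252180 and did not overlap, so the gene was called in both states at neighbouring places. FGFR1 replicate 1 bridged them with a summit at 42 bp and a value of 9.04, and had a second peak in the coding sequence at 551 bp with 9.14. Both FGFR1 values were at percentiles 21.7 and 22.7 of that list. Nur77 and H3.3 had no peak at the Neurog1 start.

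A site far upstream of Neurog1 was found in ESCs only. Nur77 in ESCs had a −log10 p of 32.9 with 29 fragments at the summit 18755 bp upstream, and FGFR1 in ESCs had 6.47 at 18805 bp. Both peaks held an alternating tract and were lost when such peaks were left out. The NC libraries had no peak there.

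Neurog2 had 10 peaks in 5 libraries, spread over 5 sites. The upstream site, 7672 to 7711 bp before the start, had values of 10.5 for RXR in ESCs, 30.6 for FGFR1 replicate 1 and 9.28 for RXR in NCs. Its FGFR1 peak was at percentile 97.1 of the list. The peaks nearest the start were all in coding sequence downstream of it. Nur77 had a summit at 899 bp in ESCs with 10.2 and at 798 bp in NCs with 9.91, which overlapped, so Neurog2 kept a Nur77 promoter peak in both states. FGFR1 replicate 1 had a summit at 999 bp with 10.3, and it counted as a promoter peak through an overlap of 33 bp. RXR in ESCs had a summit at 1060 bp with 12.6 and overlapped the promoter by only 1 bp, under the limit of 20 bp. RXR in NCs had a coding peak at 1268 bp with 7.05. FGFR1 replicate 1 and RXR in NCs also shared a site 6928 and 6935 bp downstream of the start, past the end of the gene, with 16.0 and 11.6. With promoters of 500 bp instead of 1000 bp, Neurog2 lost its calls in all libraries.

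Neurod1, which acts later in neuronal differentiation, had 6 peaks in 5 libraries and no promoter peak. Its main site lay in the coding sequence, 2410 to 2442 bp downstream of the start, with all summits within 32 bp. The values were 12.1 for RXR and 10.1 for Nur77 in ESCs, and 32.5 for FGFR1 replicate 1 and 14.1 for RXR in NCs. The FGFR1 peak had a fold of 16.4, the highest of the 19 window peaks of that library, and stood at percentile 97.5 of its list. The site is also within 1000 bp of a start of the noncoding gene Gm26755, and the files cannot tell which gene it belongs to. Upstream, RXR in ESCs had a peak at 2228 bp with 10.2 and FGFR1 in ESCs had a peak at 2893 bp with 6.80.

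Nes had no peak in any ESC library. In NCs its 6 peaks came from 4 libraries, and the 2 FGFR1 replicates both called its promoter without overlapping. Replicate 2 had a peak of 276 bp with the summit 4 bp upstream of the start, a −log10 p of 11.1 and 17 fragments. Replicate 1 had its summits in the coding sequence, 528 bp downstream with 13.8 and 741 bp downstream with 8.91. Nur77 (12.4 at 473 bp) and H3.3 (9.32 at 476 bp) coincided with the former of these. Replicate 2 had a further peak 10145 bp upstream with 10.3. Thus the call of Nes by FGFR1 was shared by the replicates at the level of the promoter and not at the level of the peak.

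Tubb3 likewise had no peak in any ESC library, and it was the only gene of the 9 where the FGFR1 replicates met. Replicate 1 had a peak of 72 bp with the summit 3 bp downstream of the start, a −log10 p of 7.63 and 11 fragments. Replicate 2 had a peak of 277 bp, its summit 97 bp away, with 20.1 and 28 fragments. Replicate 1 was thus at percentile 8.42 of its list and replicate 2 at percentile 51.4. The match was lost at a −log10 p of at least 10. Replicate 1 also had an intron peak 2856 bp downstream with 15.1. The only other peak of the window was that of Nur77 in NCs, 3433 bp upstream with 9.47, inside Mc1r, the gene of the melanocortin 1 receptor, and within 1000 bp of its start. All 4 summits of the window also fell in introns of the overlapping gene Gm20388.

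Map2 is 267311 bp long with 23 annotated starts, and its window made up 49.3% of the bases searched. It held 10 peaks in 5 libraries. Nur77 in ESCs had the only peak at the 5′ end of the gene, 83 bp upstream with a value of 9.0. In NCs RXR and Nur77 had peaks 987 and 1002 bp downstream of an internal coding start, with 11.6 and 22.4, on the tract shown above. They overlapped the promoter of that start by 87 and 40 bp. The Nur77 summit there lay 77391 bp downstream of the 5′ end, so Nur77 called the Map2 promoter in both states at different starts. The NC calls of RXR and Nur77 both ended when peaks with a tract were left out.

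Inside the Map2 introns, a second tract site had values of 19.0 for RXR and 7.68 for Nur77 in ESCs and 10.0 for RXR in NCs. Another tract site, in Nur77 from ESCs alone, had 10.4. FGFR1 replicate 1 had no promoter peak at Map2. It had a pair of peaks with 8.91 and 11.9 near the 3′ part of the gene, in an exon of a noncoding transcript, and RXR in NCs had a peak with 10.0 between them that overlapped neither.

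Th had 1 site, found in 5 libraries, and no promoter peak. The site shown above lay 4724 to 4894 bp upstream of the most distal annotated start. The values were 10.1 for RXR and 6.80 for Nur77 in ESCs, and 17.6 for FGFR1 replicate 1, 13.2 for Nur77 and 6.48 for H3.3 in NCs. All 5 peaks shared only 6 bp. The summits fell in 2 places, at 4724 to 4762 bp for RXR and both Nur77 libraries and at 4882 to 4894 bp for H3.3 and FGFR1. The FGFR1 library from ESCs, FGFR1 replicate 2 and RXR in NCs had no peak anywhere in the Th window.

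Of the 37 sites, 20 were in 1 library (54.1%, against 62.4% of all sites of the 8 lists), 8 in 2 libraries and 9 in 3 or more (24.3% against 21.8%). By state, 20 were in NC libraries only (54.1%, against 48.1% of all sites), 7 in ESC libraries only (18.9% against 23.9%) and 10 in both (27% against 28%), a split near that of all sites. NCs had 5 libraries against 3. Of the 68 summits, 32 were outside the gene, 17 in coding sequence (25%), 9 in introns, 7 in untranslated exons and 3 in exons of noncoding transcripts. The coding summits belonged to Sox1, Neurog1, Neurog2, Neurod1 and Nes. No share over all peaks is given for this split, so it cannot be called particular to these genes.

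**Figure D4:**
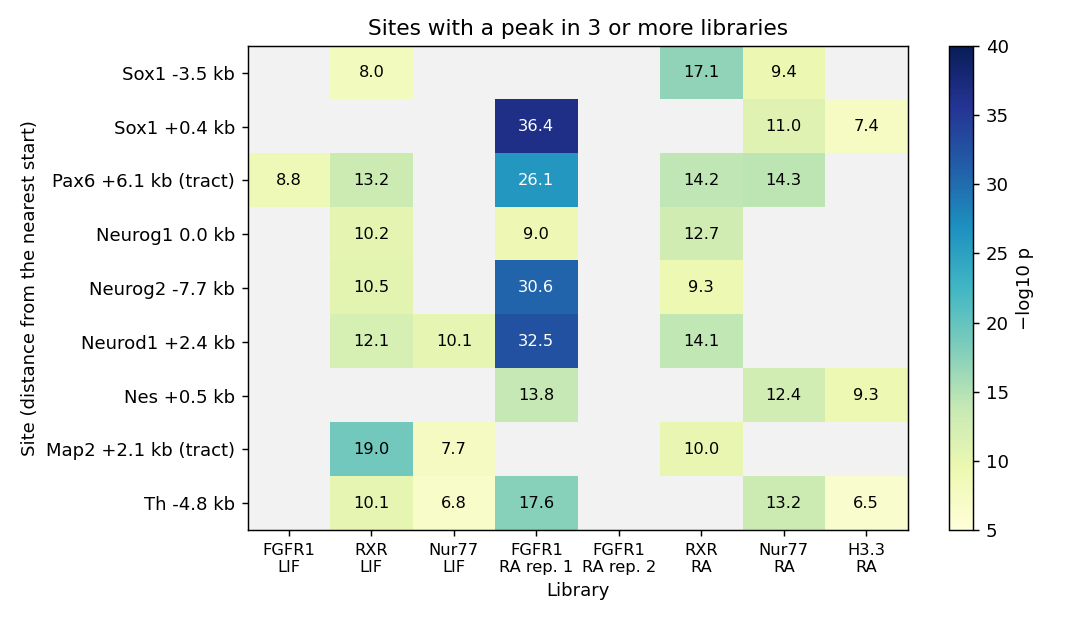
The 9 sites with a peak in 3 or more libraries (rows, with the distance from the nearest start of the gene) and their −log10 p in each library (columns). Grey squares held no peak. FGFR1 replicate 2 had no peak at any of these sites, and FGFR1 replicate 1 had its highest value, 36.4, at the Sox1 start.

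The same place was seldom found in both FGFR1 replicates. Replicate 1 had 1 of the 3 window peaks of replicate 2 (33.3%, exact Clopper-Pearson interval at 95% of 0.84 to 90.6%), against 58.4% over the whole list. Replicate 2 had 1 of the 19 window peaks of replicate 1 (5.26%, interval 0.133 to 26%), against 20.6%. These intervals cover counting error only, and neighbouring peaks are not independent. Of the 19 peaks of replicate 1, 8 were at or above percentile 75 of their list, while none of the 3 peaks of replicate 2 was. Replicate 2 was the deeper of the 2 libraries by background, with 6.78 fragments per kb against 4.16.

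For RXR, 6 of the 10 window peaks in ESCs were found again in NCs (60%, interval 26.2 to 87.8%), against 25.5% of the whole list. In the other direction, 6 of the 11 window peaks in NCs were found in ESCs (54.5%, interval 23.4 to 83.3%), against 50.1% of that list. The shared places lay at Sox1 (2 sites), the Pax6 tract, the Neurog2 upstream site, the Neurod1 coding site and the Map2 intron tract. For Nur77, 2 of 9 were found again (22.2%, interval 2.81 to 60%), against 35.5%, and they were those of Neurog2 and Th. The RXR library from NCs had 18.6 peaks per Mb over the windows against 8.37 over the windows of all protein-coding genes, a ratio of 2.22 that was the highest of the 8 libraries, where the others ran from 0.51 to 1.23. Without the long Map2 window the ratio for RXR in NCs was 3.18, and those of the other libraries ran from 1.01 to 2.28. The RXR libraries differed in depth, with 7.09 fragments per kb in ESCs and 1.87 in NCs. When summit counts and background of the ESC library were scaled down to the depth of the NC library, 1 of its 10 window peaks passed the limit and the Neurog1 call was lost.

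In NCs all 4 H3.3 peaks of the windows overlapped peaks of FGFR1 replicate 1, at the Sox1 start, the Sox1ot start, the Nes coding site and the Th site, against 71% of the whole H3.3 list. None overlapped replicate 2, against 20.5%. The intervals were 39.8 to 100% and 0 to 60.2%. Of the 19 peaks of FGFR1 replicate 1, 1 overlapped both RXR and Nur77 in NCs (5982 of the 46137 of its list). Another 4 overlapped RXR alone (3643 of its list), 3 Nur77 alone (6772 of its list) and 11 neither (57.9%, against 64.5% of its list). The peak with both was the tract past the end of Pax6. Those with RXR alone were at Neurog1, Neurod1 and 2 sites of Neurog2, and those with Nur77 alone at Sox1, Nes and Th. None of the 3 peaks of replicate 2 overlapped RXR or Nur77, and 9130 of the 14082 of its list (64.8%) overlapped neither.

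The base composition around the 5′ end of the genes varied. The GC content of the 2001 bp centred there was 63.6% at Neurog1, 62.1% at Neurog2, 60.3% at Nes, 59.7% at Sox1, 56.2% at Tubb3, 55% at Pax6, 53.6% at Map2, 50.2% at Th and 49.2% at Neurod1, against a median of 51.2% over all protein-coding genes. The 6 genes with an FGFR1 replicate 1 promoter peak had the higher GC contents, but the Pax6 peak lay 12524 bp from the 5′ end, so its value does not describe the place of that peak. Over all protein-coding genes the share with such a peak ran from 10.1% below a GC content of 45% to 78.7% from 60% upward. In replicate 2 it ran from 8.99% to 67.9%, yet Sox1, Neurog1 and Neurog2 had no promoter peak in it. The ratio of observed to expected CpG was lowest at Th, 0.159, and highest at Neurog2, 0.86, with a median of 0.474 over all genes.

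Words for known factors were looked for on both strands of the RefSeq promoters (250 bp before to 50 bp after a start, GRCm38.p6), which held 10 entries for the 9 genes. AGGTCA was in the promoter of Neurog1, and 16.3% of all 32851 promoters held it. AAAGGTCA, the word of Nur77 monomers, which contains AGGTCA, was in none, against 1.51%. TGACGTCA, the cyclic AMP response element, was in those of Pax6 and Th, against 1.79%. CAGNTG, a form of the E-box, was in that of Th alone, although 51.4% of all promoters held it. CACGTG, the Myc-type E-box, was in none, against 7.15%. Other forms of the E-box were not looked for, so promoters without these words may still hold an E-box. The ETS factor word CCGGAA was in none either, against 14.9%. Within the 37 sites, which differ in length from the promoters, CAGNTG was in 15, CACGTG in 3 (1 each at Pax6, Map2 and Th) and CCGGAA in the Neurog2 upstream site alone. No share over all sites is given for these counts. Within 100 bp around the summits, CAGNTG was in 6 of 19 peaks of FGFR1 replicate 1 (27.4% over its list), 5 of 11 of RXR in NCs (18.7%), 4 of 9 of Nur77 in NCs (23.4%), 3 of 10 of RXR in ESCs (24.9%) and 2 of 3 of FGFR1 in ESCs (15.1%). It was in 0 of those of Nur77 in ESCs (23.3%), FGFR1 replicate 2 (20.8%) and H3.3 (17.8%). In the same 100 bp, AGGTCA was in 1 of the 68 peaks, that of RXR in ESCs at Neurog1, against 2.85% to 5.09% of the summits in the whole lists. CACGTG was there in 3 of 9 peaks of Nur77 in ESCs (5.98% over its list), 1 of 10 of RXR in ESCs (5.58%) and 1 of 9 of Nur77 in NCs (7.04%). The other libraries had none.

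The genes around these 9 in the lineage were described by 4 lists of 20 genes each, for progenitors, for proneural and early neuronal factors, for the neuronal cytoskeleton and synapse, and for catecholamines. In ESCs FGFR1 had promoter peaks at 7 of the 80 (8.75%), RXR at 38 (47.5%) and Nur77 at 23 (28.8%). In NCs FGFR1 had them at 43 (53.8%) and 35 (43.8%) in replicates 1 and 2, and at 27 (33.8%) in both. RXR had them at 16 (20%), Nur77 at 21 (26.2%) and H3.3 at 11 (13.8%). The largest gap in proportion to the shares of all protein-coding genes given above was that of FGFR1 in ESCs, at 8.75% against 17%. The lists were chosen with earlier results of these data known, and no gap was tested. RXR had a higher share in ESCs than in NCs. With the ESC library scaled down to the depth of the NC library its share was 10% and the order turned. All protein-coding genes went from 42.5% to 7.69% under that scaling, against 23.3% in NCs, so their order turned too.

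By list, promoter peaks of both FGFR1 replicates were at 9 of 20 cytoskeletal genes (45%), 8 catecholamine genes (40%), 6 proneural genes (30%) and 4 progenitor genes (20%), against 39.5% of all protein-coding genes. The former 2 lists were near that share and the latter 2 below it, with no test. Genes with a promoter peak in both FGFR1 replicates were ranked by the weaker value. Among the highest were Stmn1 (32.8 and 153 in replicates 1 and 2), the gene of the microtubule regulator stathmin. Others were Slc18a1 (28.7 and 78.3), a vesicular monoamine transporter, and Gbx2 (24.5 and 18.2), a homeobox factor. Qdpr (20.8 and 22), which regenerates the cofactor of tyrosine hydroxylase, was also among them. Whether the peaks of the 2 replicates overlapped is not given for these genes. Of the 9 genes, Tubb3 had 7.63 and 20.1 in replicates 1 and 2, and Nes had 13.8 and 11.1. The genes named from the lists were picked by these same values, so their excess over Tubb3 and Nes was set by that choice. It does not show that promoter peaks of the 9 genes were weaker than those of the lists. Sox1, with no promoter peak in replicate 2, had 36.4 in replicate 1, above the 32.8 of Stmn1. The 7 genes with an FGFR1 promoter peak in ESCs were Stmn1 (28.6), Cdh2 (14.4), Gbx2 (14.1), Slc18a1 (14.1), Nefh (13.5), Pou3f2 (7.95) and Mapt (6.49). Of these, Stmn1, Gbx2, Slc18a1, Nefh and Mapt also had one in both replicates from NCs.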

How the data were processed

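Peak lists of 8 ChIP-seq libraries were analysed. The authors aligned reads to mm10 with Bowtie 1.0, keeping reads with 1 alignment, and called peaks in each library with MACS2 at a p-value limit of 1e-05 without naming a control. The deposited fold is the ratio of summit pileup to local background, the deposited −log10 p and −log10 q belong to the summit, and the deposited score, a truncated multiple of the −log10 p, was not needed. Replicates were not pooled. Fragments at the summit and background were recovered here from fold and −log10 p, within 0.002 for 100% of peaks in each library, and checked on simulated data. Background density, the lowest background divided by the smallest peak width, served as the measure of depth.

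Groups came from sample titles. Starts were those of the 141767 transcripts of GENCODE M21. A window peak overlapped a window by at least 1 bp, and sites merged overlapping peaks. Promoter and window shares over 21951 protein-coding genes gave the background. The members and lists were chosen with earlier results of these data known. All 9 members were named with every peak; of the 80 further genes, the 5 strongest with FGFR1 in both NC libraries and those with FGFR1 in ESCs were to be named, of which 1 gene is not reported here. The second FGFR1 library is titled as a second experiment, and nothing says whether it came from separate cultures. Alternatives were other limits (−log10 p from 10 up, −log10 q from 2 up), equal peak numbers, peaks without tracts and depth scaling. Each FGFR1 replicate alone, other promoters, starts and windows, and other matching were also tried. Python 3.11.15, pandas 2.3.3, numpy 2.4.6, scipy 1.17.1, pysam 0.24.0, samtools 1.23.1 and matplotlib 3.10.9 were used.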

Additional observations from a re-analysis of the deposited data

How the results depend on the processing

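A limit of a −log10 q of at least 2 removed no peak from any list, so the counts could not move under it. Protein-coding starts only, and matching over 50% of the shorter peak or through summits at most 100 bp apart, moved no count by over 1.5 times. Counts among the 9 genes are given with the share of all protein-coding genes under the same setting. Promoter calls at a −log10 p of at least 10 came to 1 for Nur77 in ESCs (12.4%), 2.5 (mean) for FGFR1 in NCs (40.6% and 46.5% in replicates 1 and 2) and 0 for H3.3 (7.17%). With an equal 10634 peaks per library they came to 0 for RXR (14.9%) and 0 for Nur77 (10.5%) in ESCs, and to 1 (mean) for FGFR1 (18.1% and 43.1%) and 2 for Nur77 (8.36%) in NCs. Without tract peaks RXR in NCs had 1 (22.2%), and with RXR in ESCs scaled to the NC depth it had 0 (7.69%). With promoters of 500 bp Nur77 in ESCs had 1 (23%), RXR in NCs 1 (21.7%) and Nur77 in NCs 2 (23.1%). Leaving out an FGFR1 replicate gave 2 to 6 genes and 3 to 19 window peaks.

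Window peaks at a −log10 p of at least 10 came to 0 for FGFR1 and 4 for Nur77 in ESCs, and to 7 (mean) for FGFR1, 6 for RXR and 0 for H3.3 in NCs. With equal numbers they came to 1, 4 and 2 for FGFR1, RXR and Nur77 in ESCs, and to 4.5 (mean) and 4 for FGFR1 and Nur77 in NCs. FGFR1 in ESCs had 1 without tract peaks and 1 in windows from 5 kb upstream to the gene end. RXR in ESCs had 1 at scaled depth, and H3.3 had 2 without peaks in promoters of other genes.

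The share of the 80 genes is followed in brackets by that of all protein-coding genes under the same setting. At a −log10 p of at least 10 it was 31.2% (25.3%) for RXR and 13.8% (12.4%) for Nur77 in ESCs. In NCs it was 15% (14%) for Nur77 and 5% (7.17%) for H3.3. With equal numbers it was 20% (14.9%) for RXR and 13.8% (10.5%) for Nur77 in ESCs, and 7.5% (8.36%) for Nur77 in NCs. For FGFR1 in NCs it was a mean of 28.1% (18.1% and 43.1% in replicates 1 and 2). It was 10% (7.69%) for RXR in ESCs at scaled depth and 5% (15.8%) for FGFR1 in ESCs with promoters of 500 bp. The single match of the FGFR1 replicates was lost (0%) at a −log10 p of at least 10 and with equal numbers. A stricter limit on −log10 p keeps fewer peaks by construction. No paired analysis was possible because 6 of the 7 groups had 1 library. A median summit of 9 to 12 fragments limits what a missing peak shows: none was called there, which does not show that the protein was absent. FGFR1 replicate 2 had a median of 27 and the higher background of the 2 FGFR1 replicates. Why it lacked peaks that replicate 1 had was not tested.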
